A study of Mus musculus with 7 samples.

Results

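Endothelial marker genes were followed through the chromatin of sorted β cells that lack CHD3 and CHD4, alternative ATPases of the chromatin remodelling complex NuRD. The set was 10 genes that mark the cells lining blood vessels, Vwf, Tek, Egfl7, Plvap, Erg, Pecam1, Kdr, Flt1, Tie1 and Esam, and it took every region of the deposited ATAC-seq table that carried one of these symbols. ATAC-seq reads open chromatin from the sites where the Tn5 transposase can insert adapters. These symbols occurred on 28 of the 61288 listed regions, at 9 of the 10 genes, with none at Tie1. The symbol is that of the nearest transcription start site (TSS), so a region is placed near a gene and was not shown to act on it.

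Libraries came from Tomato+ β cells sorted from male mice, 4 from Control animals (Chd3+/+;Chd4+/+) and 3 from Chd3/4Δβ animals (Chd3 fl/fl;Chd4 fl/fl, labelled Chd3-4Db). All animals carried the MIP-CreERT transgene, in which an insulin promoter drives a tamoxifen-dependent Cre in β cells, together with the R26 LSL-tdTomato reporter of recombination. All received tamoxifen from 4 weeks of age, and no source used here states an age for the islets of these libraries in particular. Whether the replicates are separate animals is not in the labels, and p-values therefore measure only how these libraries vary, which may be technical. No listed region carried the symbol Chd3 or Chd4, so the genotype labels were not checked at the targeted genes.

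Accessibility is given as CPM, the reads of a region scaled by the size of its library. Library sizes behind the CPM, rounded, were 17629713, 18427566, 20914104 and 42439029 in Control replicates 1 to 4. In Chd3/4Δβ replicates 1 to 3 they were 44026681, 38973375 and 17772951. Before rounding they were not whole numbers, so they may hold a scaling factor of the authors and need not be read totals. Counts in listed regions came to 48.1% to 49.6% of each size. In the column headers Control replicates 1 to 3 share a lane tag, Chd3/4Δβ replicate 3 has a different one and the other 3 libraries have none. What a tag stands for is not stated, and for the tagged libraries tag and genotype cannot be told apart. All Control headers also begin with a prefix that no Chd3/4Δβ header has. Its meaning for the libraries is not stated either, and it cannot be told apart from genotype in any library. The table lists only the 61288 of 109675 tested regions that the authors called different between these groups, so each marker region had to differ to be listed. Its change is therefore given as a description and read against all listed regions. Calls of higher or lower accessibility in Chd3/4Δβ were made where an edgeR quasi-likelihood test gave a Benjamini-Hochberg adjusted p under 0.05 and the log2 fold change was at least 1 in size.

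Endothelial cells line every vessel, and those of the islet form a dense bed of fenestrated capillaries next to the β cells. β cells secrete VEGF-A, which acts on the endothelium through the tyrosine kinase receptors encoded by Kdr (VEGFR2) and Flt1 (VEGFR1). The endothelium in turn lays down the basement membrane of the islet. Tek encodes the angiopoietin receptor TIE2, and Tie1 encodes its partner receptor TIE1. Erg encodes an ETS-family transcription factor that maintains endothelial identity, and Pecam1, Esam, Plvap, Vwf and Egfl7 encode adhesion, junction, fenestral and secreted proteins of these cells.

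RefSeq promoter windows of 300 bases, 250 before to 50 after a start (GRCm38.p6), were held for 6 of the 10 genes and not for Esam, Pecam1, Plvap and Vwf. The 10 windows of these 6 genes were searched on both strands for short motifs of factors that act in endothelium. The ETS motif, searched as CAGGAAG, was found in 3 of the 10 windows, against 13.3% of all 32851 windows of this length. All of these were windows of Egfl7 or Erg, which have several windows each, so a count of windows is not a count of genes. A second ETS form, searched as CCGGAAG, was found in 0 of 10 windows, against 8.86%. The GATA motif was searched as AGATAA and was found in 2 windows, against 11.2%. The SOX motif, for which the letters were AACAAT, was found in the same 2 windows, of Erg and Tek, against 10.7%. The FOX motif, with the letters GTAAACA, was found in 0 windows, against 3.65%. The AP-1 motif, with the letters TGANTCA, was also found in 0 windows, against 7.81%. No matches overlapped. Only 2 of the 10 windows lay in a listed region, 1 of Egfl7 and that of Flt1, and neither held a match. These are printed here with the Erg window that starts 3 bases past the end of a listed region, and with the Egfl7 window upstream of the first, which held CAGGAAG and lay 1992 bases from a listed region. Sequences read 5′ to 3′ on the strand of the gene, and capitals mark a motif match.
Egfl7, chr2:26586386-26586685, + strand, in the listed region: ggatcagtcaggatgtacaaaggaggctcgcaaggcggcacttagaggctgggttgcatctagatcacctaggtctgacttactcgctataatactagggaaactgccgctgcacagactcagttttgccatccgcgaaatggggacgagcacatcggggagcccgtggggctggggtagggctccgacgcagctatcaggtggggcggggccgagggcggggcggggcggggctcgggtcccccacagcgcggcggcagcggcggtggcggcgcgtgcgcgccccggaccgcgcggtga
Egfl7, chr2:26583615-26583914, + strand, outside it: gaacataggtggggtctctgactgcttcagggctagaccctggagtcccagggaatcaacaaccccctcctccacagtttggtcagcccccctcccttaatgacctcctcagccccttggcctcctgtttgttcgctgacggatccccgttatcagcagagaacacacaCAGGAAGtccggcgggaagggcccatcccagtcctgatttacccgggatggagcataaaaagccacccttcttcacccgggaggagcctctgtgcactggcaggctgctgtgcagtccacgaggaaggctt
Flt1, chr5:147725962-147726261, - strand, in the listed region: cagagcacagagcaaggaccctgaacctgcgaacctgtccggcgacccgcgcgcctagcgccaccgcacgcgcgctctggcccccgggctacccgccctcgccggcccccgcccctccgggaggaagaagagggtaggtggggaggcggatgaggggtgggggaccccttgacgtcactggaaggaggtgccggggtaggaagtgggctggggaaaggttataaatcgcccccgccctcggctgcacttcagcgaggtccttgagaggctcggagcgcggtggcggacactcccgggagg
Erg, chr16:95586544-95586843, - strand, beside a listed region: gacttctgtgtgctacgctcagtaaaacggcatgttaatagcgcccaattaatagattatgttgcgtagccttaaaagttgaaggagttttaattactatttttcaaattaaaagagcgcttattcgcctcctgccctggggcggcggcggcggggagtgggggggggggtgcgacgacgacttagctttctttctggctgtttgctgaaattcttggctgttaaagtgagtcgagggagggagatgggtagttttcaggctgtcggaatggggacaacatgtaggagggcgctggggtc
A match is a description of these letters and not a binding site. Accessibility at these promoters is given with each gene.

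Of the 28 marker regions, 13 were called higher in Chd3/4Δβ, 2 were called lower and 13 passed the adjusted p without reaching the fold limit. The share called higher was 46.4%, against 37.0% of all listed regions, and the share called lower was 7.14%, against 20.4%, with 57.4% called in either direction over all. By the adjusted p alone, 21 were higher and 7 lower, which is 28 of 28, against 52.6%, 44.9% and 97.5% of all listed regions. The median log2 fold change of the marker regions was 0.93, with quartiles of 0.16 and 1.54, against a median of 0.56 over all listed regions. All 3 Chd3/4Δβ libraries lay above all 4 Control libraries in 21 marker regions and below them in 6, and the groups overlapped in 1. Over all listed regions the shares without overlap were 49.3% above and 38.8% below, 88.0% in all. Because scaling sets where zero lies, the split depends on it. With TMM factors over the listed regions the marker regions split into 11 higher and 5 lower, with 31.6% of all listed regions higher and 27.9% lower, and with RLE factors (DESeq2 style) they again gave 11 and 5, with 29.3% higher and 31.7% lower over all. TMM factors over promoter regions gave 15 higher and 2 lower, with 42.6% and 14.9% over all, and a cyclic loess gave 11 and 4, with 22.9% and 25.6% over all.

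**Figure D1:**
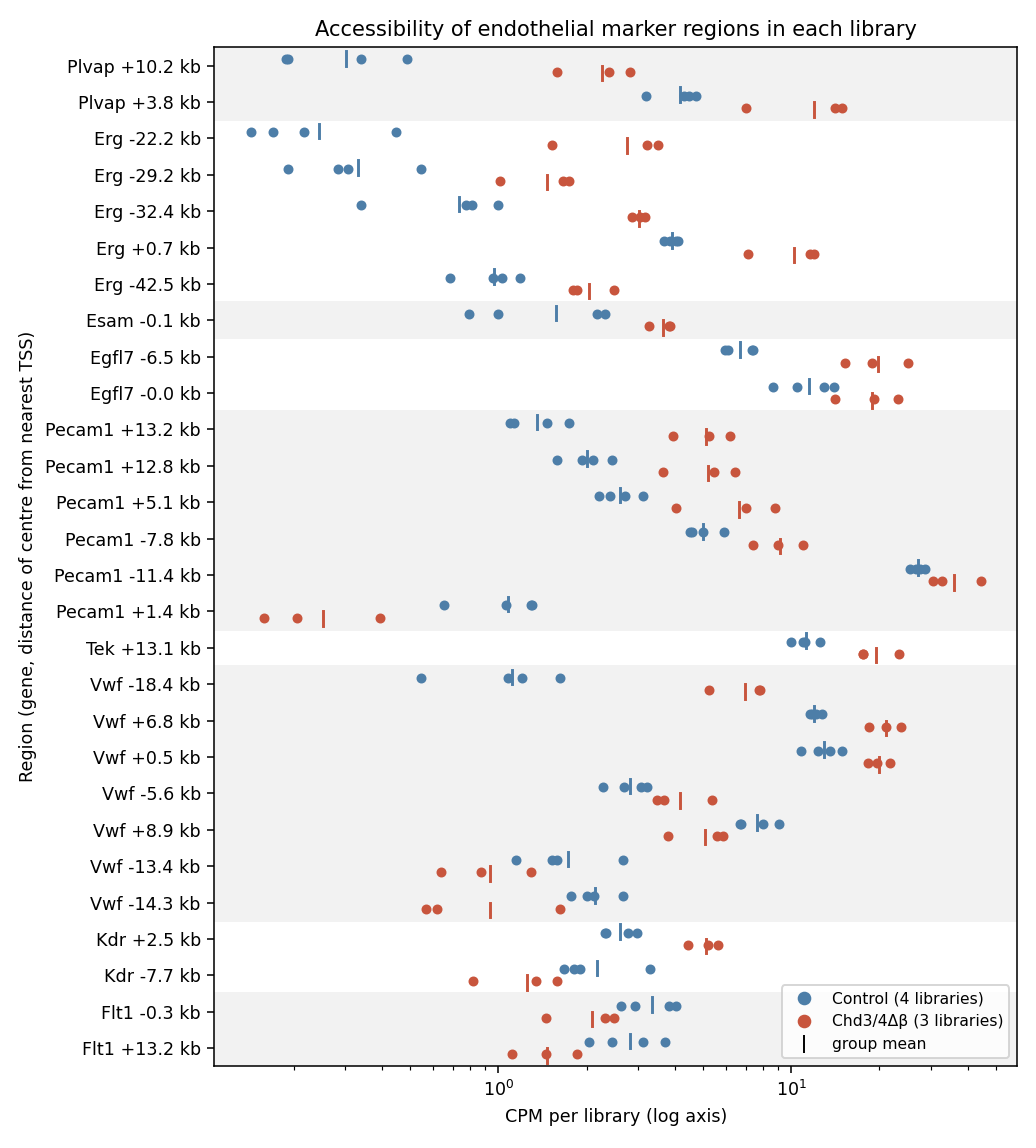
CPM (log axis) of each of the 28 endothelial marker regions in every library, with the gene and the distance of the region's centre from the nearest TSS on the vertical axis and group means as vertical ticks. The 3 Chd3/4Δβ libraries sit above all 4 Control libraries in 21 regions, including every region of Plvap, Erg and Esam, and below them in both regions of Flt1.

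The marker regions were mostly weak in Control β cells. Their Control mean ranged from 0.245 to 27.0 CPM with a median of 2.61, and their median in Chd3/4Δβ was 5.09 CPM. Per kb of region, the median was 3.48 CPM in Control and 6.07 in Chd3/4Δβ, against 3.34 and 4.71 over all listed regions. Most of the marker regions lay in introns (18 of 28), with 6 intergenic, 3 at promoters and 1 in an exon. Of the intergenic regions 5 of 6 were called higher, against 46.9% of all listed intergenic regions, and of the intronic ones 6 of 18, against 35.0%. Regions with a Control mean under 2 CPM were called higher in 8 of 10 cases, against 69.5% of all listed regions that weak. Among regions of 2 CPM or more in Control, 5 of 18 marker regions were called higher and 1 lower, against 13.3% and 23.8% of all listed regions at that level. The split uses the Control level, which also enters the change, and the table keeps regions above 1 CPM in at least 3 libraries. A region with no Control library above 1 CPM is therefore listed only if all 3 Chd3/4Δβ libraries are high. That held for 3 marker regions, all called higher, and for 10629 of all listed regions, of which 10487 were called higher. Among regions with at least 1 Control library above 1 CPM, 10 of 25 marker regions (40.0%) were called higher, against 24.1% of all such listed ones. That difference was not tested. Where fewer than 3 Control libraries passed 1 CPM, Chd3/4Δβ libraries still had to pass it, so this comparison is not free of the filter. For losses the reverse holds, as a region with no Chd3/4Δβ library above 1 CPM is listed only through Control.

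The transcription factor gene Erg was the member with the most regions called higher, 5 of 5. At the region 709 bases inside its TSS (chr16:95585228-95586541, intron 1), which ends just short of the Erg window printed above, Control libraries gave 3.86, 3.69, 4.11 and 4.03 CPM and Chd3/4Δβ libraries 11.6, 12.0 and 7.09 CPM. The groups did not overlap, and the log2 fold change was 1.39 (SE 0.198, edgeR adjusted p = 3.81e-06). An intergenic region 22156 bases upstream had the largest log2 fold change of all marker regions at the library sizes used (chr16:95608500-95608999). Control libraries gave 0.17, 0.217, 0.143 and 0.448 CPM and Chd3/4Δβ libraries 3.23, 3.52 and 1.52 CPM. Control values here rest on 3, 4, 3 and 19 reads, so the region was close to closed in Control, and the log2 fold change was 3.33 (SE 0.395, edgeR adjusted p = 3.09e-07), or 1.46 under cyclic loess. Further upstream, the log2 fold change was 2.20 at 29180 bases and 1.13 at 42498 bases, and in intron 2, 32432 bases from the nearest TSS, it was 2.02. The call at 42498 bases was lost in 6 of 14 alternative settings, among them when Control replicate 4 or Chd3/4Δβ replicate 1 was left out (log2 fold change 0.96 in each). The call at 29180 bases was lost under cyclic loess (0.05). At 22156 and 29180 bases no Control library passed 1 CPM, so these 2 regions could be listed only through high values in Chd3/4Δβ. In intron 2 and at 42498 bases fewer than 3 Control libraries passed 1 CPM. Those regions therefore also needed Chd3/4Δβ libraries above 1 CPM to be listed, and the count of 5 is to be read with all this.

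No region at the receptor genes Tek, Kdr and Flt1 was called. Tek, the receptor of angiopoietins, had 1 region in its intron 1 (chr4:94752201-94753132), with 12.5, 11.1, 10.0 and 11.0 CPM in Control and 17.6, 17.6 and 23.4 CPM in Chd3/4Δβ. Every Chd3/4Δβ library was above every Control library, and the log2 fold change of 0.80 (SE 0.156, edgeR adjusted p = 0.000168) was under the fold limit. Tie1, its partner receptor, had no listed region, and 4 listed regions within 50 kb of it carry the symbols Cdc20, Gm12857 and Gm12859, with 1 called higher and 2 lower.

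The VEGF receptor genes Kdr and Flt1 had 2 regions each. In intron 1 of Kdr, the main signalling receptor for VEGF-A (chr5:75975442-75976421), Control libraries gave 2.78, 2.98, 2.34 and 2.31 CPM and Chd3/4Δβ libraries 4.45, 5.21 and 5.63 CPM, a log2 fold change of 0.97 (SE 0.217, edgeR adjusted p = 0.000653) just short of the limit. It reached the limit when Control replicate 1 (1.00), Control replicate 2 (1.04) or Chd3/4Δβ replicate 1 (1.06) was left out. Upstream of Kdr by 7696 bases (chr5:75985903-75986406) the order was the opposite, with 3.29, 1.90, 1.67 and 1.81 CPM in Control and 1.34, 0.821 and 1.58 CPM in Chd3/4Δβ (log2 fold change -0.81, SE 0.323, edgeR adjusted p = 0.0369). The upstream difference missed the threshold when Control replicate 1 (adjusted p = 0.182) or Chd3/4Δβ replicate 2 (adjusted p = 0.229) was left out of the edgeR fit.

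Flt1, a receptor that binds VEGF-A tightly and signals weakly, was the only member with all its listed regions below Control. At its promoter (chr5:147725130-147727443), the region that holds the Flt1 window printed above, Control libraries gave 4.03, 2.93, 2.63 and 3.82 CPM and Chd3/4Δβ libraries 2.48, 2.31 and 1.46 CPM. The log2 fold change was -0.66 (SE 0.257, edgeR adjusted p = 0.0347), and the adjusted p was 0.0615 to 0.108 in the edgeR fits that left out Control replicate 1, Control replicate 4, Chd3/4Δβ replicate 2 or Chd3/4Δβ replicate 3. In intron 16 of 29 (chr5:147601566-147602483) Control libraries gave 2.04, 2.44, 3.11 and 3.70 CPM and Chd3/4Δβ libraries 1.11, 1.85 and 1.46 CPM, a log2 fold change of -0.96 (SE 0.286, edgeR adjusted p = 0.00707). The groups did not overlap in either region, and the intronic one reached the fold limit in 7 of 15 alternative settings, among them when Control replicate 1 (-1.08), Control replicate 2 (-1.02) or Chd3/4Δβ replicate 2 (-1.18) was left out.

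**Figure D2:**
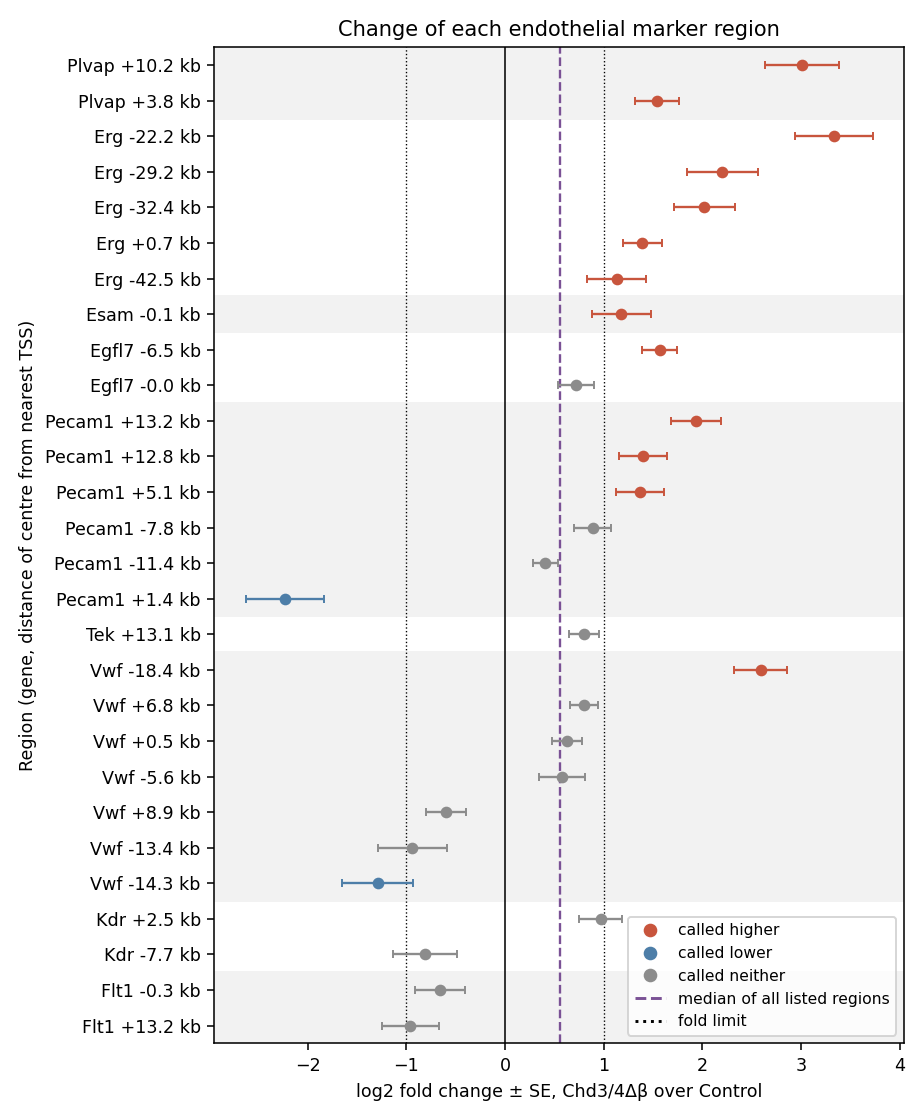
Log2 fold change (Chd3/4Δβ over Control) of the 28 regions, each point a region with its SE as the bar, coloured by call, with dotted lines at the fold limit and a dashed line at the median of all listed regions, 0.56. All 5 Erg and both Plvap regions lie past the upper limit, and both Flt1 regions lie below 0.

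Among genes of adhesion and junctions, Pecam1 (PECAM-1 or CD31, found at endothelial cell contacts) had 6 regions, of which 3 were called higher, 1 lower and 2 neither. Its strongest region, in intron 12 of 14 (chr11:106674063-106675357), was already open in Control at 27.5, 25.5, 26.7 and 28.5 CPM and stood at 44.3, 32.8 and 30.5 CPM in Chd3/4Δβ. The log2 fold change was 0.41 (SE 0.129, edgeR adjusted p = 0.01), and 0.23 (edgeR adjusted p = 0.17) with Chd3/4Δβ replicate 1 left out. A weak region in the same intron (chr11:106677958-106678309) had 1.47, 1.74, 1.10 and 1.13 CPM in Control and 6.16, 5.23 and 3.94 CPM in Chd3/4Δβ, a log2 fold change of 1.94 (SE 0.253, edgeR adjusted p = 1.1e-06). The other Pecam1 regions called higher, in intron 2 and in intron 1 of a longer transcript, had log2 fold changes of 1.37 and 1.40, and the second region called neither had 0.89, or 1.01 with Chd3/4Δβ replicate 3 left out.

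The Pecam1 region nearest a TSS, at 1398 bases (chr11:106749055-106749406), was the marker region with the largest loss. Control libraries gave 1.30, 0.651, 1.29 and 1.06 CPM and Chd3/4Δβ libraries 0.159, 0.205 and 0.394 CPM, a log2 fold change of -2.23 (SE 0.398, edgeR adjusted p = 6.13e-05), or -3.93 under cyclic loess. The Chd3/4Δβ values rest on 7, 8 and 7 reads. No Chd3/4Δβ library passed 1 CPM, so this region could be listed only through the Control libraries, and its loss is to be read with that. This region lies 33950 bases upstream of the RefSeq start of Pecam1 and belongs to the gene through a longer Ensembl transcript. Esam, an adhesion molecule of endothelial tight junctions, had 1 region at its promoter (chr9:37527854-37528202), with 0.794, 2.17, 1.00 and 2.31 CPM in Control and 3.84, 3.87 and 3.26 CPM in Chd3/4Δβ. It was the only marker promoter called higher (log2 fold change 1.18, SE 0.301, edgeR adjusted p = 0.00213), and the call was lost without Control replicate 1 (0.99) and under TMM (0.97) and RLE (0.87).

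Plvap encodes the protein of the diaphragms that span endothelial fenestrae, and both of its regions were called higher. In exon 3 (chr8:71507435-71508415), Control libraries gave 4.48, 4.29, 3.20 and 4.74 CPM and Chd3/4Δβ libraries 14.9, 14.1 and 7.03 CPM, a log2 fold change of 1.54 (SE 0.223, edgeR adjusted p = 5.06e-06). In intron 5 (chr8:71501188-71502012), Control libraries gave 0.34, 0.488, 0.191 and 0.189 CPM from 4 to 9 reads and Chd3/4Δβ libraries 2.38, 2.82 and 1.58 CPM, a log2 fold change of 3.01 (SE 0.376, edgeR adjusted p = 6.26e-07), or 1.05 under cyclic loess. Since no Control library passed 1 CPM, this region too could be listed only through Chd3/4Δβ. Chd3/4Δβ replicate 3 was the lowest of its group in both regions and still above every Control library.

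Egfl7 encodes a secreted protein of the vessel wall that guides vessel formation. Its promoter region (chr2:26585906-26587326, centred 14 bases from a TSS) holds the first Egfl7 window printed above and was already open in Control, at 8.68, 12.9, 14.0 and 10.5 CPM. In Chd3/4Δβ it stood at 19.2, 23.2 and 14.1 CPM, and the lowest of these is next to the highest Control library. The log2 fold change of 0.72 (SE 0.182, edgeR adjusted p = 0.00203) was under the fold limit. The intergenic region 6468 bases upstream of a TSS (chr2:26573024-26574069) went from 5.96, 7.38, 7.32 and 6.08 CPM in Control to 25, 18.8 and 15.3 CPM in Chd3/4Δβ, a log2 fold change of 1.57 (SE 0.177, edgeR adjusted p = 1.46e-07). Of all marker regions called higher, it had the highest level in both groups.

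Vwf encodes von Willebrand factor, which tethers platelets and is stored in endothelial granules, and its 7 regions were split. One was called higher, 1 lower and 5 neither. The region called higher lay 18351 bases upstream of the nearest TSS (chr6:125527837-125529009), with 1.08, 0.543, 1.2 and 1.63 CPM in Control and 7.79, 7.83 and 5.23 CPM in Chd3/4Δβ (log2 fold change 2.59, SE 0.272, edgeR adjusted p = 5.75e-08). The region nearest a TSS (chr6:125603096-125604936), 466 bases inside an internal start of a shorter transcript, had 14.9, 13.6, 12.3 and 10.8 CPM in Control and 19.6, 18.3 and 21.8 CPM in Chd3/4Δβ, a log2 fold change of 0.63 (SE 0.151, edgeR adjusted p = 0.00132). The region called lower, in intron 7 (chr6:125588979-125589613), had 2.67, 2.12, 2.01 and 1.77 CPM in Control and 0.568, 0.616 and 1.63 CPM in Chd3/4Δβ (log2 fold change -1.29, SE 0.358, edgeR adjusted p = 0.00413). The remaining 4 regions, all in introns, had log2 fold changes of 0.80, 0.58, -0.60 and -0.94, and in the last of these the groups overlapped. That last region reached the fold limit when Control replicate 3 (-1.08) or Chd3/4Δβ replicate 3 (-1.18) was left out and missed the adjusted p when Control replicate 2 (edgeR adjusted p = 0.12), Chd3/4Δβ replicate 1 (0.144) or Chd3/4Δβ replicate 2 (0.0872) was.

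Summed over the listed regions of a gene, 7 of the 9 genes had every Chd3/4Δβ library above every Control library. The regions were listed because they differ, and of all single listed regions 49.3% lay all above and 38.8% all below. A share over the sums of all genes was not computed, so the count is a description only. The Erg and Plvap sums include regions that could be listed only through Chd3/4Δβ. Erg went from 5.84 to 6.41 CPM in the Control libraries to 22.1, 22.2 and 14.3 CPM in Chd3/4Δβ replicates 1 to 3, and Plvap from 3.39 to 4.92 CPM to 17.3, 17 and 8.61 CPM. Kdr overlapped, with 4.02 to 6.07 CPM in Control and 5.79 to 7.2 CPM in Chd3/4Δβ, and Flt1 was lower in every Chd3/4Δβ library, with 5.37 to 7.52 CPM against 2.93 to 4.16 CPM. The sum over all 28 regions was 129 to 134 CPM in Control and 253, 228 and 199 CPM in Chd3/4Δβ replicates 1 to 3.

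Chd3/4Δβ replicate 3 stood apart within its group at these genes. It was the lowest Chd3/4Δβ library in 13 of the 13 marker regions called higher, against 54.5% of all 22692 listed regions called higher. It was also the shallowest Chd3/4Δβ library and the only one with a lane tag, and the part of either in this order was not tested. At Tek and Kdr, in contrast, its sum was the highest of the group. Without it, 14 marker regions were called higher and 3 lower.

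**Figure D3:**
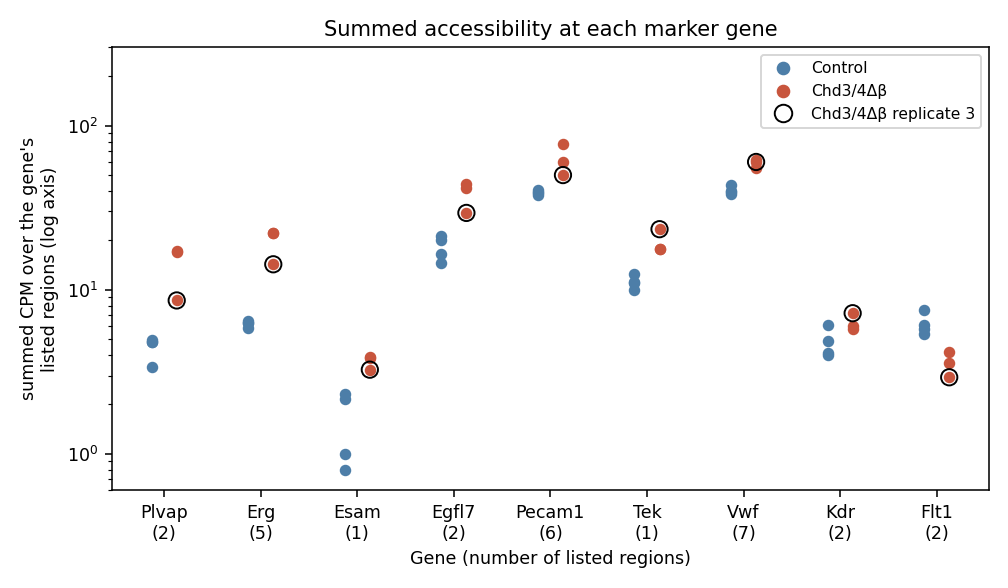
Summed CPM (log axis) over the listed regions of each of the 9 genes, 1 point a library, with the number of regions in brackets and a ring around Chd3/4Δβ replicate 3. Chd3/4Δβ libraries are above all Control libraries at 7 genes, overlap them at Kdr and lie below them at Flt1, and the ringed library is the lowest of its group at Plvap, Erg, Esam, Egfl7, Pecam1 and Flt1. The share of all genes with such an order was not computed.

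Further genes of the vessel wall moved less evenly than the 10 markers. Of 34 other endothelial surface, junction and secreted genes, 24 had listed regions, 55 in all, of which 20 (36.4%) were called higher and 12 (21.8%) lower, near the shares of all listed regions, with a median log2 fold change of 0.76. The largest gains were at Tm4sf1, a membrane-spanning surface protein (4.52), Selp, the adhesion receptor P-selectin (3.68), and Gpihbp1, which carries lipoprotein lipase to the capillary lumen (3.49). In none of these regions did a Control library pass 1 CPM, so each could be listed only through high values in Chd3/4Δβ. The largest losses were at Clec14a, a surface lectin (-2.62), Adgrl4, an adhesion G protein-coupled receptor (-1.54), and Icam2, an adhesion molecule (-1.44), though the Clec14a region lay 177678 bases from the TSS. At the Clec14a region no Chd3/4Δβ library passed 1 CPM, so it could be listed only through Control.

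All 12 VEGF and angiopoietin pathway genes had listed regions, 38 in all, of which 14 (36.8%) were called higher and 10 (26.3%) lower, with a median log2 fold change of 0.47. An intronic region at Flt4, the receptor of VEGF-C found mainly on lymphatic endothelium, had 0.227, 0.217, 0.239 and 0.306 CPM in Control and 11.5, 9.29 and 12.5 CPM in Chd3/4Δβ, a log2 fold change of 5.40 (SE 0.265, edgeR adjusted p = 1.11e-12). The gene of its ligand, Vegfc, held regions with log2 fold changes of 4.71 and 4.07 and another with -1.68. No Control library passed 1 CPM at the Flt4 region or at either Vegfc gain. These regions could therefore be listed only through high values in Chd3/4Δβ, and their gains are to be read with that. At the Vegfc loss no Chd3/4Δβ library passed 1 CPM, so that region could be listed only through Control. An intergenic region 8711 bases from the TSS of Vegfa fell from 7.32, 6.13, 6.22 and 6.81 CPM in Control to 1.18, 2.46 and 3.77 CPM in Chd3/4Δβ (log2 fold change -1.49, SE 0.277, edgeR adjusted p = 0.00011). A region at Vegfd, which encodes another ligand of FLT4, fell from 2.27, 2.33, 1.96 and 2.14 CPM to 0.454, 0.795 and 1.18 CPM.

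Endothelial transcription factor genes came closest to the 10 markers in their counts. Of 20, 16 had listed regions, 38 in all, of which 19 (50.0%) were called higher and 3 (7.89%) lower, with a median log2 fold change of 0.99. Tal1, a basic helix-loop-helix factor of blood and endothelium (2.25), Mef2c, a MADS-box factor (2.14), and Ets2, an ETS factor (1.87), had the largest gains. No Control library passed 1 CPM at the Tal1 region, so it could be listed only through Chd3/4Δβ. Fli1, the ETS factor closest to ERG (-1.32), Ets2 (-1.06) and Prox1, the lymphatic factor that is also expressed in islets (-1.06), had the losses. In the Ets2 loss the groups overlapped.

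Regions at markers of other cells that a sort for Tomato could hold were counted in the same way. Over all listed regions 37.0% were called higher and 20.4% lower, and the ductal share called higher, 42.1%, was near that. Some regions of these lists had no Control library above 1 CPM, for example an exonic one at Pnlip and one at Ptprc. Such regions could be listed only through Chd3/4Δβ, so the counts called higher are to be read with that. Of pericyte and mesenchymal regions 12 of 19 were called higher and 1 lower, with a summed level of 42.0 to 43.2 CPM in Control and 93.3 to 115 CPM in Chd3/4Δβ. Of acinar regions 5 of 5 were called higher, at sums of 4.59 to 5.40 and 17.7 to 23.3 CPM, while Amy2b, Cpa1, Cpb1, Prss2, Ptf1a and Rbpjl had no listed region. Of immune regions 2 of 3 were called higher, at sums of 5.21 to 6.86 and 9.85 to 13.4 CPM, and 7 of the 9 immune genes had no listed region. Alpha cell regions were called higher in 15 of 24 cases (sums of 85.7 to 96.3 and 132 to 157 CPM), delta cell regions in 8 of 12 (43.3 to 44.7 and 87.3 to 90.0 CPM) and ductal regions in 8 of 19 (103 to 116 and 102 to 142 CPM). Calls of lower numbered 3 for alpha cell, 1 for delta cell, 2 for ductal, 0 for acinar and 0 for immune regions. Regions of 12 β cell genes moved the other way, with 10 of 54 called higher and 17 lower, and sums of 1148 to 1362 CPM in Control and 590, 678 and 924 CPM in Chd3/4Δβ replicates 1 to 3. For the 9 listed regions close to a TSS, at 9 of these 12 genes, the median was 49.4 CPM in Control and 25.1 CPM in Chd3/4Δβ. The 5 marker regions close to a TSS had medians of 3.92 and 10.2 CPM, and they include the Vwf region at an internal start of a shorter transcript. By these medians β cell genes stayed the more open in both groups. That did not hold for each region, as the Ins2 promoter region stood at 2.81 CPM in Control and 0.714 CPM in Chd3/4Δβ. No Chd3/4Δβ library passed 1 CPM at that Ins2 region, so it could be listed only through Control. The part of cells of other types in the gain at endothelial markers was not tested. In bulk libraries more cells of another type and more open chromatin per cell cannot be told apart. Chd3/4Δβ replicate 3, lowest at endothelial markers called higher, was the highest of its group at β cell genes (924 CPM) and at alpha cell genes (157 CPM), and the lowest in the sums over pericyte and mesenchymal, acinar, ductal, delta cell and immune regions.

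**Figure D4:**
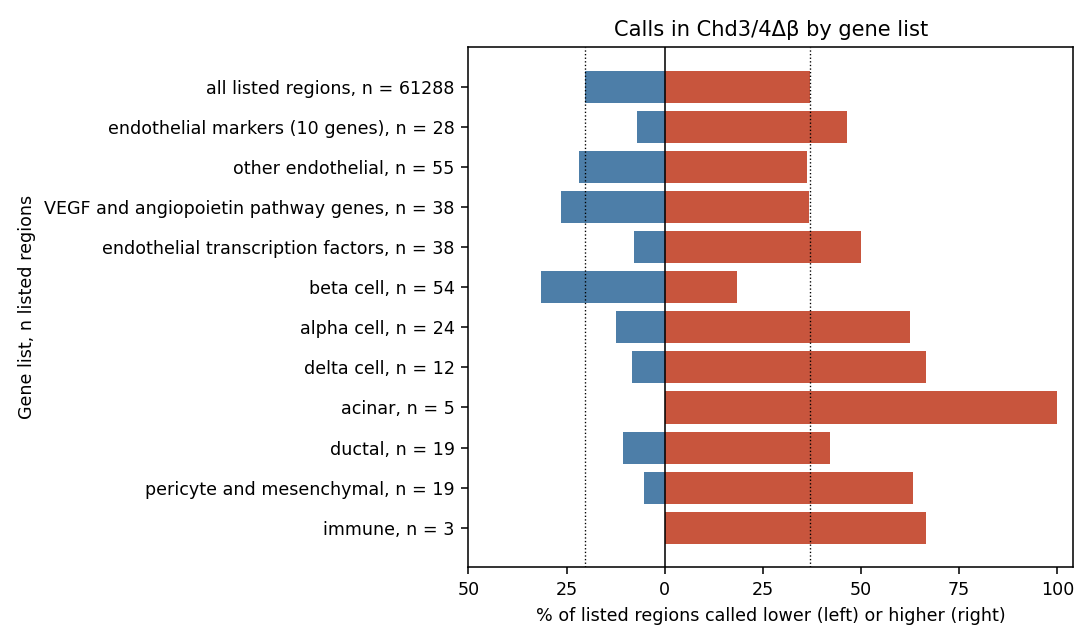
Share of listed regions called higher (right, red) or lower (left, blue) in Chd3/4Δβ for each gene list, with the number of regions beside its name and dotted lines at the shares of all listed regions, 37.0% and 20.4%. The endothelial markers and endothelial transcription factors have few regions called lower, 2 of 28 and 3 of 38. So do the pericyte and mesenchymal (1 of 19), delta cell (1 of 12), ductal (2 of 19), alpha cell (3 of 24), acinar (0 of 5) and immune (0 of 3) lists. The β cell list alone has more called lower than higher.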

How the data were processed

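ATAC-seq was performed on sorted Tomato+ β cells (4 Control and 3 Chd3/4Δβ libraries). The authors deposited 1 table of regions on a merged set with an unscaled read count per region and library. The deposited table also gives the CPM of each library, and dividing counts by it returned 1 fixed library size per library, used as the offset. The deposited p-value and FDR columns, with the authors' fold changes, were used only to count the 109675 tested regions and to check the FDR limit of 0.05 on the 61288 listed ones. All listed regions passed 1 CPM in at least 3 libraries. For the aligner, peak caller and Tn5 shift no source used here gives a name. The labels name GRCm39, but deposited TSS distances match RefSeq GRCm38.p6 gene starts (709 and 716 bases for 1 Erg region), so coordinates are read as GRCm38 and none was converted. Genes, TSS distances and classes are those of the deposited annotation.

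Counts were tested across all listed regions by the robust quasi-likelihood F-test of edgeR 4.0.16 (R 4.3.3, genotype only), with Benjamini-Hochberg adjustment over 109675 regions. SE is the log2 fold change divided by the square root of F. Alternatives used TMM, RLE, cyclic loess with limma 3.58.1, DESeq2 1.42.0, a mean CPM of at least 2, a replicate block, adjusted p alone, regions within 10 kb of a TSS, a depth class and leaving out each library. The pipeline was tested on simulated data. Values per library are given for each gene's region nearest a TSS and its region of largest change, and for other lists the 3 largest gains and losses among called regions. Further marker regions were named after their values were seen. Members and lists were chosen with earlier results of these data known.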

Additional observations from a re-analysis of the deposited data

Results flagged for a closer look

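The Kdr region 7696 bases upstream of the TSS (chr5:75985903-75986406) had 1 Control library far from the other 3. Control replicate 1 gave 3.29 CPM and the others 1.67 to 1.90 CPM, so its gap to the nearest library was 0.86 of the range of the group, above Dixon's critical value for 4 samples. Chance alone puts about 1 in 20 such groups past this limit, and 28 regions were examined. Chd3/4Δβ libraries were below all Control libraries with or without this replicate, and the log2 fold change was -0.81 with it and -0.56 (edgeR adjusted p = 0.182) without it.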

How the results depend on the processing

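Across the alternatives no marker region changed direction, and of the values of single regions 380 kept their side of the call, 10 lost the call and 21 gained it. The count called higher stayed at 11 to 15 in all settings but 3, which by construction use other regions or limits: 8 higher and 0 lower among the 19 regions with a mean of at least 2 CPM, 5 higher and 1 lower among the 15 within 10 kb of a TSS, and 21 higher and 7 lower by adjusted p alone. The count called lower was 5 under TMM, 5 under RLE and 4 under cyclic loess, against 2. The median log2 fold change of 0.93 became 0.72 under TMM, 0.62 under RLE, 0.71 under cyclic loess and 1.12 under TMM over promoters, where the median of all listed regions was 0.35, 0.25, 0.14 and 0.75, against 0.56. Leaving out 1 library at a time gave 12 to 14 higher, 2 or 3 lower and medians of 0.87 to 0.98. Same-numbered libraries had correlations of 0.07, -0.03 and -0.02, so no pairing by number was seen, though this cannot exclude it. With a replicate block 12 regions were higher and 2 lower, with a median of 0.87. A depth class as a term, chosen after seeing the data, gave 14 higher, 3 lower and 0.94. Calls were lost at the Erg regions at 42498 bases (0.55 to 1.31) and 29180 bases (0.05 to 2.48) and at Esam (0.87 to 1.54). Control values of 3 to 19 reads limit the precision of the fold changes of the weakest regions.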

Other observations

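Listed regions that lie within 50 kb of a marker gene but carry another symbol were counted as a description. There were 42, of which 9 (21.4%) were called higher, 10 (23.8%) lower and 23 neither, with a median log2 fold change of -0.41, against 0.93 for the 28 marker regions. Of these 42 regions 13 (31.0%) were annotated as promoters, against 3 of the 28 marker regions, and 22.1% of all listed promoter regions were called higher, against 37.0% of all listed regions. The neighbourhoods of Plvap and Esam held 10 and 7 such regions. At Esam 1 was called higher and 3 lower, and at Plvap 2 were called higher and 0 lower, with 8 neither.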
